A study of Mus musculus with 6 samples.

Results

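The 6 genes described here belong to the program of the plasma cell, the antibody-secreting end stage of the B lineage. They were Sdc1, Slamf7, Prdm1, Xbp1, Edem1 and Sec11c, and they are 6 of 11271 genes that could be tested. They were picked by name from probe sets whose annotation gives exactly 1 symbol, with the difference between the groups on these arrays already known, so their levels are given as a description without a test. Each gene had a single probe set in the deposited table, and all 6 passed the filter on dim probe sets. RNA of pre-B cells, sorted from bone marrow as B220+ IgM- CD43-, was hybridised to Affymetrix expression arrays. The Mef2c-deficient group held 3 arrays of Vav-Cre Mef2cfl/fl mice, in which Cre under the Vav promoter removes the floxed Mef2c alleles throughout the blood system, and the control group held 3 arrays. The mice of both groups were 9 months old. Control animals could carry Mef2cfl/fl or Mef2cfl/+ without Cre, or Vav-Cre with Mef2cfl/+, and which of these lies behind each control array is not given in the sources used here. The study's methods call the sorted samples independent without naming the animals, and p-values measure the spread between these samples. Values are log2 of the deposited intensity, and a difference is the Mef2c-deficient mean minus the control mean.

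A plasma cell forms when a B cell stops maintaining its B-cell identity and turns to secretion. Prdm1 encodes BLIMP1, the repressor that shuts down B-cell genes. Xbp1 encodes the transcription factor that the sensor IRE1 activates by splicing its mRNA when unfolded protein builds up in the endoplasmic reticulum (ER), and that enlarges the secretory apparatus. Edem1 encodes an ER lectin that passes misfolded glycoproteins on for degradation, and Sec11c a catalytic subunit of signal peptidase, which cuts the signal sequence from proteins entering the ER. Sdc1 encodes syndecan-1 (CD138), the heparan sulfate proteoglycan used to sort plasma cells, and Slamf7 a receptor of the SLAM family carried by plasma cells, natural killer (NK) cells and dendritic cells. Pre-B cells come long before this stage, and syndecan-1 is also present on the surface of B-cell precursors in mouse bone marrow.

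The promoters of Sdc1 and Slamf7 are shown because these were the 2 genes whose groups did not overlap, as 37.7% of all genes tested did not. Each window runs from 250 bases before to 50 bases after the gene start in RefSeq (build GRCm38.p6) and is written along the gene's own strand. The Sdc1 window is chr12:8771146-8771445 on the plus strand, and the Slamf7 window is chr1:171648950-171649249 on the minus strand. Capitals mark every match to GGGCGG (the GC box bound by Sp1 family factors), CAGCTG and CAGGTG (E boxes of the kind bound by TCF3) and GAAAG (the core of the BLIMP1 site), searched on both strands, with none of the matches overlapping. The MEF2 consensus was searched as well.
Sdc1: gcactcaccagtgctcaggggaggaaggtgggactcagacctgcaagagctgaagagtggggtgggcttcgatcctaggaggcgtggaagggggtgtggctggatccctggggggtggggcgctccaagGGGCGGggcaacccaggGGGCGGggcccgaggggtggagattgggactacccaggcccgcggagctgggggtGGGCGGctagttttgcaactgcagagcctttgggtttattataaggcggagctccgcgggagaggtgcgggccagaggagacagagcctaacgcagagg
Slamf7: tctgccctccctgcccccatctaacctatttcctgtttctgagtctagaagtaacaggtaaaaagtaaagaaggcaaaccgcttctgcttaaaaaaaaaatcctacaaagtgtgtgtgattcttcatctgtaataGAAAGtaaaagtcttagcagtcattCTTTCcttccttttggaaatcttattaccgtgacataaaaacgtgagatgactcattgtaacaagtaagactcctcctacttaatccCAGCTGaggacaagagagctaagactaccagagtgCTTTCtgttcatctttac
The 2 windows share no match. Sdc1 had 3 GC boxes, starting at -121, -104 and -49 from the gene start, and none of the other motifs, with a GC content of 66.3%. Slamf7 had 1 CAGCTG box at -3 and 3 GAAAG matches at -115, -90 and 33, no GC box, and a GC content of 39%. The median GC content of 32817 promoter windows of this length was 52.7%. Of these windows 35.6% held GGGCGG, 16.3% CAGCTG, 20.2% CAGGTG, 57.3% GAAAG and 3.19% the MEF2 consensus, which was in neither of the windows shown. A match is a run of letters only, and says nothing of binding.

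Sdc1 and Slamf7, the surface genes of the program, were lower in the Mef2c-deficient arrays. Sdc1 had log2 values of 13.01, 11.65 and 11.64 in the Mef2c-deficient arrays, against 14.60, 14.29 and 14.49 in the control arrays. The highest Mef2c-deficient array lay 1.27 below the lowest control array, and the control arrays were close together, with a range of 0.31 against 1.37 in the Mef2c-deficient arrays. The group means were 12.10 ± 0.79 in Mef2c-deficient and 14.46 ± 0.16 in control cells (SD, n = 3 each). The difference on the log2 scale was -2.36 (SE 0.46), or 5.12-fold lower as deposited. The base in which the deposited values left the log scale is not stated. A base of 2 would leave 2865 deposited values above what a scanner reads. It is therefore likely that the log2 differences and their SE given here are too large. If the base is e, each log2 difference and SE here is 0.69 times the value given, and Sdc1 was 3.10-fold lower. RNA of a sorted population does not tell fewer cells carrying a transcript apart from less transcript per cell.

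Slamf7 had log2 values of 13.54, 12.30 and 12.95 in the Mef2c-deficient arrays, against 14.75, 14.67 and 15.82 in the control arrays. Again the groups did not overlap, with a gap of 1.12 between them. Control replicate 3 was the highest of the 6 arrays and Mef2c-deficient replicate 2 the lowest. The means were 12.93 ± 0.62 in Mef2c-deficient and 15.08 ± 0.64 in control cells (SD, n = 3 each), and the log2 difference was -2.15 (SE 0.52). This is 4.44-fold lower as deposited, or 2.81-fold with a base of e. Without control replicate 3 it was -1.78.

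Prdm1, the BLIMP1 gene, did not separate the groups. Its log2 values were 9.84, 9.62 and 8.51 in the Mef2c-deficient arrays, against 9.44, 9.40 and 9.68 in the control arrays. Mef2c-deficient replicate 1 was the highest of the 6 arrays and replicate 3 the lowest, so that the control arrays lay inside the range of the others. The log2 difference of the means was -0.18 (SE 0.42), and 0.23 without Mef2c-deficient replicate 3.

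Xbp1 had a higher mean in the Mef2c-deficient arrays, with replicate 3 far above the others. Its log2 values were 12.49, 13.45 and 15.16 in the Mef2c-deficient arrays, against 13.04, 12.42 and 13.30 in the control arrays. Mef2c-deficient replicate 1 was lower than 2 of the control arrays, and the groups overlapped. The means were 13.70 ± 1.35 in Mef2c-deficient and 12.92 ± 0.45 in control cells (SD, n = 3 each). The log2 difference of 0.78 (SE 0.82) was 0.05 without Mef2c-deficient replicate 3. Splicing of Xbp1 mRNA was not measured here.

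The secretory genes of the group differed little. Edem1 had log2 values of 11.72, 12.01 and 12.07 in the Mef2c-deficient arrays, against 12.59, 12.58 and 12.03 in the control arrays. Only control replicate 3 reached into the Mef2c-deficient range, by 0.04, and the log2 difference was -0.47 (SE 0.22). It was 0.02 after quantile normalization and 0.07 after cyclic loess, so the sign of the Edem1 difference depended on the scaling. Sec11c had log2 values of 17.73, 17.39 and 17.00 in the Mef2c-deficient arrays, against 17.82, 17.73 and 16.77 in the control arrays. Control replicate 3 was the lowest of the 6 arrays here, the groups overlapped, and the difference was -0.07 (SE 0.40).

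**Figure D1:**
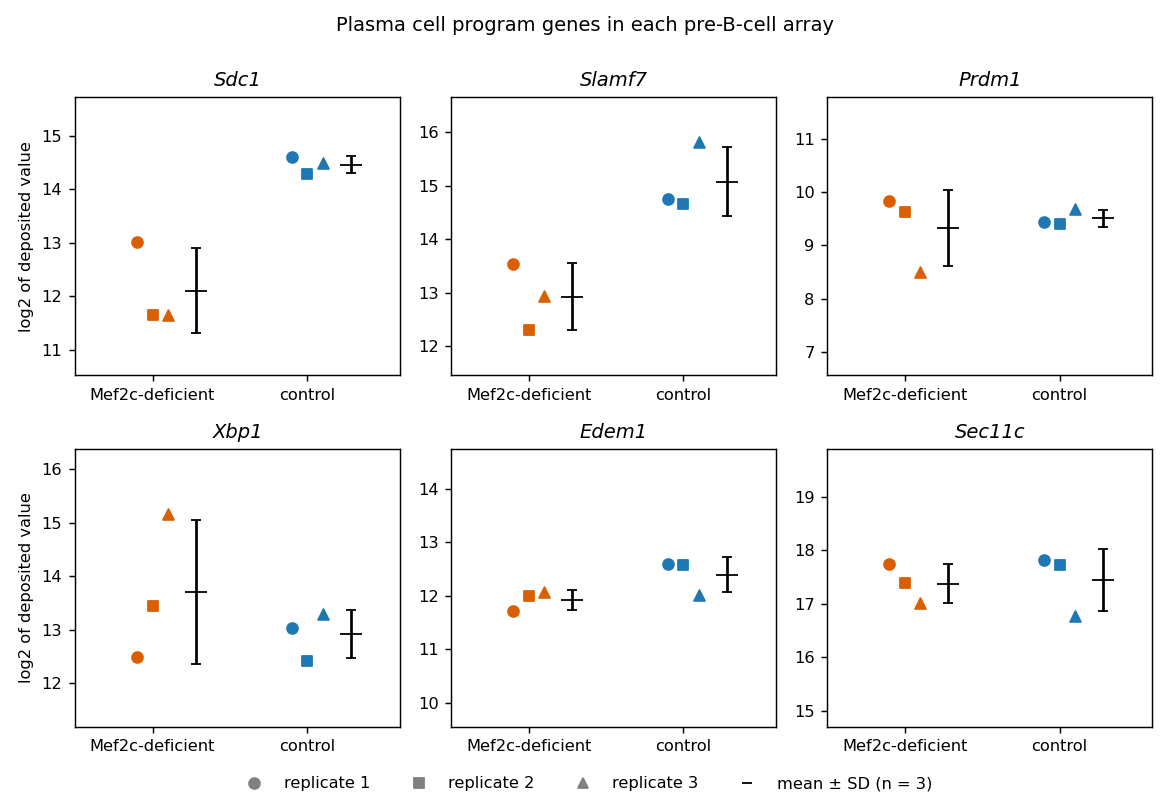
Deposited values on the log2 scale (vertical axis) for the 6 genes in 3 Mef2c-deficient arrays (orange, left) and 3 control arrays (blue, right). Symbols tell the replicate numbers apart, black bars are the mean and SD, and all panels span the same height in log2 units. The groups were apart in Sdc1 (gap of 1.27) and Slamf7 (gap of 1.12) and overlapped in the other 4 genes.

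The arrays of a replicate number tended to deviate together, so each Mef2c-deficient array was also set against the control array of its number. The Sdc1 differences were -1.59, -2.64 and -2.84 for numbers 1, 2 and 3. Those of Slamf7 were -1.21, -2.37 and -2.87, so in both genes number 1 gave the smallest difference and number 3 the largest. Prdm1 gave 0.40, 0.23 and -1.17, and Xbp1 -0.55, 1.04 and 1.85, in each case with both signs. Edem1 gave -0.88, -0.57 and 0.04, and Sec11c -0.09, -0.34 and 0.23.

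Sdc1 and Slamf7 were the 2 of 6 genes that separated the groups, both with lower values in Mef2c-deficient cells. Among all genes tested 37.7% separated the groups, 27.1% with lower and 10.6% with higher values. The mean was lower in 5 of the 6 genes, beside 62.3% of all genes. Since the 6 genes were picked with this contrast known, nothing is read from these shares. All genes tested had a median log2 difference of -0.36. Relative to it, Sdc1 differed by -1.998 and Slamf7 by -1.79, while Prdm1 differed by 0.18, Xbp1 by 1.14, Edem1 by -0.11 and Sec11c by 0.29.

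The median of all genes moved with the scaling, to -0.10 with quantile normalization, -0.04 with cyclic loess and -0.07 with median centring of the arrays. Sdc1 differed by -1.94, -1.80 and -2.06 under these scalings and Slamf7 by -1.82, -1.63 and -1.86, in the same order and without overlap between groups. The Xbp1 difference was 1.19, 1.33 and 1.07, with overlap. Prdm1 turned to 0.11 with centring, and Sec11c to 0.21 with cyclic loess and 0.23 with centring.

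**Figure D2:**
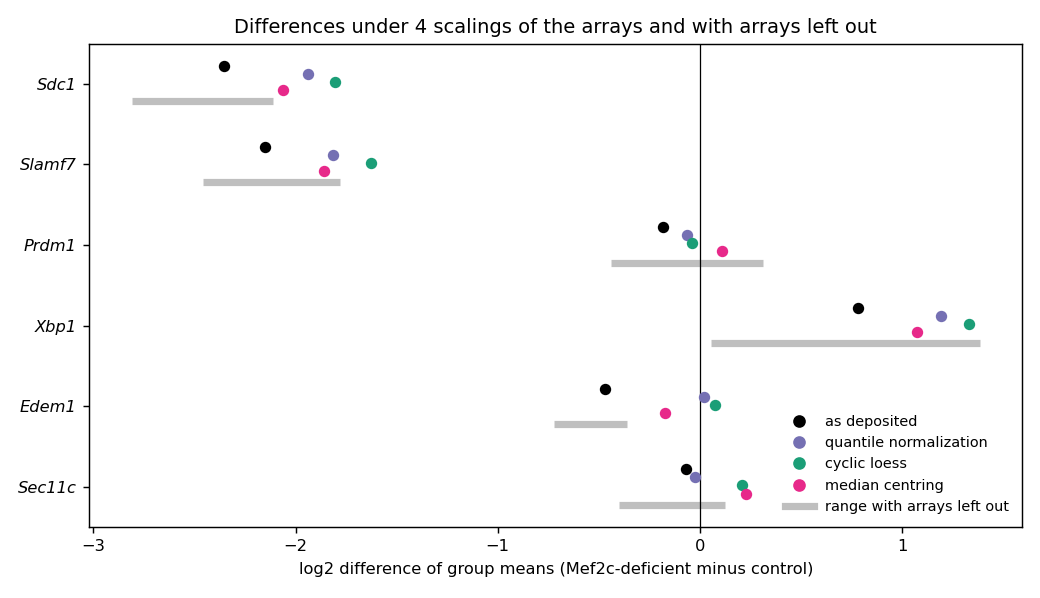
Log2 difference of the group means, Mef2c-deficient minus control (horizontal axis), of the 6 genes on the deposited scale (black), after quantile normalization (purple), cyclic loess (green) or median centring (pink), and the range of the difference when 1 array, or both arrays numbered 3, was left out (grey bar). The differences nearest to 0 were -1.80 in Sdc1 and -1.63 in Slamf7, both with cyclic loess, and Prdm1, Edem1 and Sec11c had values on both sides of 0.

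Across all genes, limma called 2 lower and 0 higher at an adjusted p under 0.05, or 0.0177% of those tested. Without Mef2c-deficient replicate 3 these counts were 154 and 5, with none of the named list genes below among them. Before adjustment, p was under 0.05 for 2353 lower genes (20.9%) and 600 higher genes (5.32%). The lower and higher genes numbered 1247 and 815 after quantile normalization, 1148 and 931 after cyclic loess, and 1209 and 1581 after median centring. The 13 measured marker genes of pre-B cells were all above the filter on dim probe sets, and 11 of them had lower means in the Mef2c-deficient arrays, beside 62.3% of all genes. Their median difference was -0.84, beside -0.36 over all genes, and 5 of them were lower without overlap, beside 27.1% of all genes. Among these 5 were the recombinase gene Rag1 (-1.18) and the interleukin-7 receptor gene Il7r (-1.09). The B-cell receptor gene Cd79b had 19.06, 19.03 and 18.20 in the Mef2c-deficient arrays, against 19.22, 19.00 and 18.76 in the control arrays. Mef2c itself was not analysed here and gives no check of the labels. The 6 probe sets for bioB, a bacterial transcript spiked into each hybridisation, were 1.66 to 1.84 higher in the Mef2c-deficient arrays on the log2 scale. Those for the further controls bioC, bioD and CreX were higher too, by 0.21 (CreX) to 1.57 (a bioC probe set). The part of this shift in the other differences was not tested.

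Markers of other cells that use or share this program were read on the same arrays. All 12 measured markers of plasmacytoid dendritic cells, which secrete interferon and also rely on XBP1, had higher means in Mef2c-deficient cells, and 2 of them did so without overlap, as did 10.6% of all genes tested. Siglech, their surface lectin, had log2 values of 14.41, 16.55 and 18.54 in the Mef2c-deficient arrays, against 12.59, 12.51 and 15.53 in the control arrays. The summed deposited value of the list was 59563, 186728 and 940179 in the Mef2c-deficient arrays, against 32283, 25988 and 96525 in the control arrays. Mef2c-deficient replicate 3 was thus the highest array for both this list and Xbp1, and control replicate 3 the highest control array for both. Control replicate 3 was also the highest of all arrays for Slamf7, while Mef2c-deficient replicate 3, with the most marker signal, was below every control array for Slamf7 and Sdc1. The part of these cells in the Xbp1 and Slamf7 values was not tested.

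**Figure D3:**
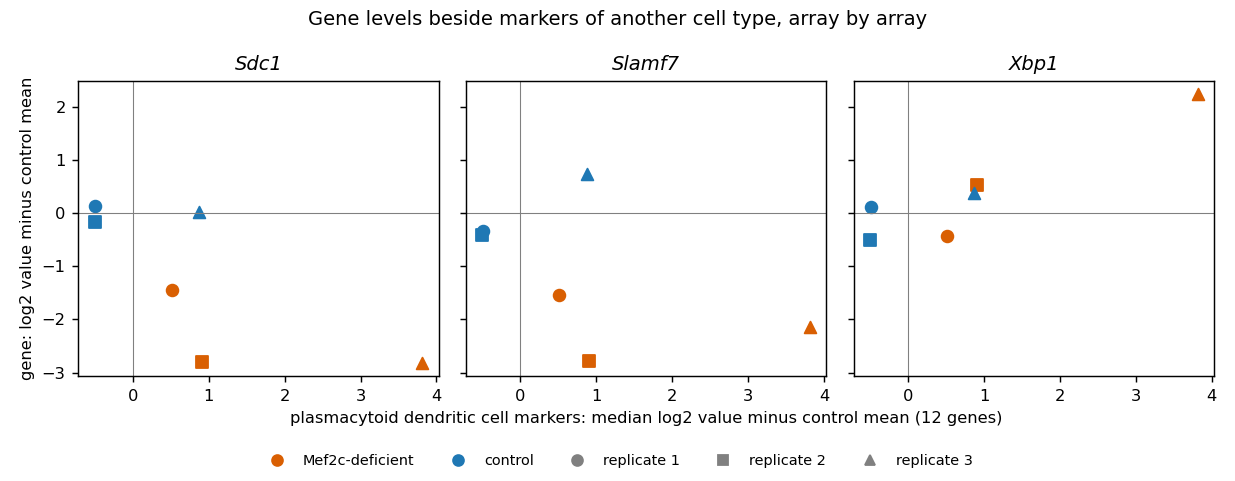
Log2 value minus the control mean of Sdc1, Slamf7 and Xbp1 (vertical axis) against the median of the same quantity over 12 plasmacytoid dendritic cell markers (horizontal axis), for 3 Mef2c-deficient (orange) and 3 control arrays (blue), whose symbols give the replicate number. Marker medians were 0.51, 0.91 and 3.81 for Mef2c-deficient and -0.49, -0.50 and 0.87 for control arrays, and the array at 3.81 was the highest for Xbp1 and below all control arrays for Sdc1 and Slamf7.

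NK cell markers, of which 9 were measured and 5 passed the filter, summed to 2316, 4528 and 32733 in the Mef2c-deficient arrays, against 1803, 1924 and 5441 in the control arrays. The NK receptor gene Ncr1 was among those below the filter. The 10 measured neutrophil markers summed to 145731, 46381 and 1289980 in the Mef2c-deficient arrays, against 96370, 34620 and 179252 in the control arrays. The highest array of both lists was Mef2c-deficient replicate 3. Taken as log2 minus the control mean, NK marker medians were -0.44, -0.48 and 2.13 in the Mef2c-deficient arrays. The control arrays had -0.34, -0.20 and 0.56. For neutrophil markers these medians were -0.34, -1.11 and 4.69 in the Mef2c-deficient arrays, against -0.31, -1.20 and 1.09 in the control arrays. T cell markers (7 measured) summed to 2712, 7716 and 21636 in the Mef2c-deficient arrays, against 1424, 1576 and 3023 in the control arrays. Monocyte and macrophage markers (12 measured) summed to 5401, 7010 and 156439 in the Mef2c-deficient arrays, against 7206, 6878 and 25557 in the control arrays. Both sums were highest in Mef2c-deficient replicate 3. For monocytes and macrophages this was mostly Lyz2, and the median marker, as log2 minus the control mean, was 0.92 in Mef2c-deficient replicate 2 and 0.79 in Mef2c-deficient replicate 3. Erythroid markers (6 measured) had sums of 64946, 42398 and 16263 in the Mef2c-deficient arrays, against 76882, 85085 and 45338 in the control arrays. These sums were mostly Tfrc, the transferrin receptor gene, while the median marker was highest in Mef2c-deficient replicate 3 and 5 of the 6 had higher means in Mef2c-deficient cells. Mature B cell markers (9 measured) summed to 278606, 577528 and 205283 in the Mef2c-deficient arrays, against 261788, 282785 and 304523 in the control arrays, with Mef2c-deficient replicate 2 the highest. The part of these cells in the values of the 6 genes was not tested either. Without Mef2c-deficient replicate 3 the log2 difference was -2.13 for Sdc1 and -2.16 for Slamf7, and without both arrays numbered 3 it was -2.11 for Sdc1 and -1.79 for Slamf7, with no overlap between the groups in either case.

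Genes of plasma cell identity and antibody secretion other than the 6 were taken from a list of 30, of which 21 were tested. Their median log2 difference was -0.28, beside -0.36 over all genes, and 12 of the 21 had lower means, beside 62.3% of all genes. With limma 0 passed an adjusted p under 0.05, and 5 were lower and 1 higher with p under 0.05 before adjustment, beside 20.9% and 5.32% of all genes. The median was 0.017 after cyclic loess and 0.013 after median centring. The smallest p belonged to Lman1, a cargo receptor that leaves the ER with secreted glycoproteins. Its log2 values were 11.95, 11.75 and 12.60 in the Mef2c-deficient arrays, against 13.26, 12.98 and 13.73 in the control arrays (difference -1.22, SE 0.35, limma adjusted p = 0.118). Eaf2 and Ell2, which encode partners in RNA polymerase II elongation, differed by -1.59 (SE 0.50) and -1.38 (SE 0.47), and Glipr1 by -1.07 (SE 0.38). The 2 groups were apart in each of these 4 genes, as they were with lower values in 27.1% of all genes tested. The higher gene was Igha, the constant region of IgA, where the groups overlapped. It had 16.84, 17.73 and 15.56 in the Mef2c-deficient arrays, against 15.59, 15.26 and 14.83 in the control arrays (difference 1.48, SE 0.55, limma adjusted p = 0.157). Its probe set name ends in _x_at, and how far it also reads other immunoglobulin transcripts was not tested.

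Igha and some defining plasma cell genes, Irf4 (the fifth lower gene) among them, were looked up after the values had been seen. Irf4, the transcription factor needed for both light chain rearrangement and plasma cell formation, had log2 values of 17.19, 16.53 and 15.21 in the Mef2c-deficient arrays, against 17.90, 17.49 and 17.51 in the control arrays (difference -1.32, SE 0.50, limma adjusted p = 0.161). Every Mef2c-deficient array was lower than every control array. Jchain, which encodes the chain that joins IgM and IgA into polymers, had 14.81, 15.66 and 14.56 in the Mef2c-deficient arrays, against 14.84, 15.01 and 13.80 in the control arrays, with overlap. Mzb1, an ER protein gene of B cells and plasma cells, differed by 0.47 (SE 0.32, limma adjusted p = 0.334). Tnfrsf17, which encodes the plasma cell survival receptor BCMA, was below the filter, with log2 values of 7.59, 6.96 and 7.57 in the Mef2c-deficient arrays, against 7.13, 7.03 and 6.999 in the control arrays.

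Of 16 factors that maintain B-cell identity or oppose the plasma cell, 12 were tested. Lower means were found in 8 of the 12, beside 62.3% of all genes, with a median of -0.60, beside -0.36 over all genes. The median was -0.21 after quantile normalization, -0.083 after cyclic loess and -0.31 after median centring. It was also nearer to 0 without Mef2c-deficient replicate 3 (-0.21), without control replicate 3 (-0.20) and without both (-0.072). Here 0 passed the adjusted threshold, and 2 were lower and 0 higher with p under 0.05 before adjustment, beside 20.9% and 5.32% of all genes. The 2 lower ones were the early B-cell factor gene Ebf1, at -1.15 (SE 0.37), and Ciita, the activator of MHC class II genes, at -0.89 (SE 0.36). Their limma adjusted p was 0.135 for Ebf1 and 0.178 for Ciita. With the replicate number as a block, 1 gene was lower (Ebf1) and 1 higher (Irf8) before adjustment. Over all 11271 genes tested, 2599 were lower and 757 higher in that fit. Irf8, a factor of B cells and dendritic cells, differed by 0.94 (SE 0.57) and Foxo1, which drives recombinase expression, by -0.68 (SE 0.44), both with overlap. Pax5, the B-lineage commitment gene that BLIMP1 represses, had log2 values of 16.69, 16.34 and 15.25 in the Mef2c-deficient arrays, against 16.31, 15.79 and 18.06 in the control arrays, and was named after these values were seen. Control replicate 3 held the highest Pax5 value by far, and the groups overlapped.

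The unfolded protein response list covered the sensors upstream of Xbp1 and the factors beside it. Of 16 genes tested 9 had lower means, with a median of -0.34, and 0 passed the adjusted threshold with limma. This median was 0.13 after quantile normalization, 0.20 after cyclic loess and -0.080 without Mef2c-deficient replicate 3. Before adjustment 1 lower and 1 higher gene had p under 0.05, beside 20.9% and 5.32% of all genes, and both genes encode sensors in the ER membrane. With the replicate number as a block these counts were 2 and 2, beside 2599 and 757 of the 11271 genes tested. Atf6 had log2 values of 11.69, 11.61 and 11.20 in the Mef2c-deficient arrays, against 12.83, 12.31 and 12.17 in the control arrays (difference -0.94, SE 0.31, limma adjusted p = 0.139). Eif2ak3, which encodes PERK, had 12.51, 12.49 and 12.06 in the Mef2c-deficient arrays, against 11.66, 11.02 and 11.78 in the control arrays (difference 0.87, SE 0.32, limma adjusted p = 0.158). The groups were apart in both genes, in opposite directions, as in 27.1% (lower) and 10.6% (higher) of all genes tested. Ern1, which encodes IRE1 and so acts directly on Xbp1 mRNA, was below the filter, at 7.87, 6.94 and 8.16 in the Mef2c-deficient arrays, against 6.38, 6.88 and 6.37 in the control arrays. The stress-induced gene Ddit4 differed by -0.66 (SE 0.30) and Creb3, an ER-anchored transcription factor gene, by -0.55 (SE 0.25), both without overlap.

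In the list of XBP1-dependent ER genes, which serve translocation, folding and transport, 39 genes were tested. Lower means were found in 22 of the 39, beside 62.3% of all genes. The list median of the log2 difference was -0.13, and its sign depended on the scaling. It was 0.18 after quantile normalization, 0.30 after cyclic loess and 0.16 after median centring, and also positive without Mef2c-deficient replicate 1 (0.12) or 2 (0.041). None passed the adjusted threshold with limma (0 lower and 0 higher). Before adjustment 2 were lower and 1 higher with p under 0.05, beside 20.9% and 5.32% of all genes. With the replicate number as a block these counts were 3 lower and 4 higher, beside 2599 and 757 of the 11271 genes tested. Sec63, part of the translocation channel, had log2 values of 12.42, 12.18 and 12.23 in the Mef2c-deficient arrays, against 13.42, 13.70 and 13.49 in the control arrays (difference -1.26, SE 0.26, limma adjusted p = 0.0934). Stt3a, the catalytic subunit of the oligosaccharyltransferase, differed the other way by 1.44 (SE 0.42, limma adjusted p = 0.118). Arcn1 and Golgb1, of coated vesicles and the Golgi, differed by -1.07 (SE 0.35) and -1.06 (SE 0.45).

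In ER-associated degradation, the pathway of Edem1, 16 of 21 genes tested had lower means, beside 62.3% of all genes. Their median was -0.59, beside -0.36 over all genes. The adjusted threshold was passed by 0 genes with limma, while 5 were lower and 0 higher with p under 0.05 before adjustment, beside 20.9% and 5.32% of all genes. Ube2j1, the ubiquitin-conjugating enzyme of the ER membrane, had log2 values of 11.63, 12.58 and 12.35 in the Mef2c-deficient arrays, against 13.57, 13.23 and 13.60 in the control arrays (difference -1.29, SE 0.34, limma adjusted p = 0.109). Its relative Ube2j2 differed by -0.85 (SE 0.27), Sel1l, the adaptor of the HRD1 ligase, by -1.07 (SE 0.35), and Ufd1, which helps to extract substrates, by -1.06 (SE 0.38). Of the relatives of Edem1, Edem3 differed by -0.86 (SE 0.41) and Edem2 by 0.61 (SE 0.66), or -0.091 without Mef2c-deficient replicate 3, both with overlapping groups. The list median was -0.19 after quantile normalization, -0.13 after cyclic loess and -0.30 after median centring.

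The partners of Sec11c in signal peptidase had lower means in 2 of 3 genes tested, beside 62.3% of all genes. Sec11a, the other catalytic subunit, had log2 values of 14.54, 14.99 and 15.22 in the Mef2c-deficient arrays, against 15.38, 15.26 and 15.44 in the control arrays, a difference of -0.44 (SE 0.29). Its groups did not overlap, but under cyclic loess the difference was 0.01. Spcs2 differed by -0.79 (SE 0.47) and Spcs3 by 0.08 (SE 0.57), or -0.54 without Mef2c-deficient replicate 3. Spcs1 was below the filter. Of the 3 genes tested 0 were lower or higher with p under 0.05 before adjustment with limma, beside 20.9% and 5.32% of all genes. At the adjusted threshold the count was 0, beside 0.0177% of all genes.

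Of 15 SLAM family receptors and signalling partners beside Slamf7, 11 were measured. Of the 9 genes tested 0 passed the adjusted threshold with limma, beside 0.0177% of all genes. Before adjustment 1 was lower and 0 higher with p under 0.05, beside 20.9% and 5.32% of all genes. The lower one was the phosphatase gene Ptpn11 (difference -0.73, SE 0.30, limma adjusted p = 0.181). Without adjustment, blocking by replicate number left 0 of the 9 lower or higher, while 2599 of all genes were lower and 757 higher. The receptor genes Ly9 and Slamf1 differed by -0.72 (SE 0.46) and -0.99 (SE 0.86), while Slamf9, Cd48, Cd84 and Slamf6 differed by 0.40 (SE 0.64), 0.27 (SE 0.48), 0.23 (SE 0.51) and 0.13 (SE 0.32). All of these 6 receptors overlapped between the groups. Slamf8 and the adaptor gene Sh2d1a were below the filter. The phosphatase gene Inpp5d differed by -0.34 (SE 0.27), and by 0.20 under cyclic loess. The median of the list was 0.13 and turned to -0.27 without Mef2c-deficient replicate 3.

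Among the syndecans, Sdc4 lay on the same side as Sdc1. Sdc4 had log2 values of 15.94, 15.60 and 16.21 in the Mef2c-deficient arrays, against 16.24, 16.64 and 16.63 in the control arrays (difference -0.59, SE 0.30, limma adjusted p = 0.234). Sdc3 had 10.93, 10.98 and 10.97 in the Mef2c-deficient arrays, against 10.54, 10.70 and 10.15 in the control arrays (difference 0.50, SE 0.28, limma adjusted p = 0.265). Both separated the groups, Sdc3 upwards, as did 27.1% of all genes with lower and 10.6% with higher values. Sdc2 was below the filter. The median was -0.01 over the 17 genes tested in the list with heparan sulfate synthesis, and 0.18, 0.14 and 0.28 after quantile normalization, cyclic loess and median centring. Of these 0 passed the adjusted threshold with limma, and 2 were lower and 1 higher with p under 0.05 before adjustment, beside 20.9% and 5.32% of all genes. Sdcbp, which encodes syntenin, the adaptor that binds the tails of syndecans, was the higher one, at 10.38, 11.36 and 10.90 in the Mef2c-deficient arrays, against 9.64, 10.02 and 9.89 in the control arrays (difference 1.03, SE 0.33). The 2 lower ones were Extl2, a glycosyltransferase gene, at -1.23 (SE 0.33), and Casc3, at -0.97 (SE 0.34). Casc3 belongs to the exon junction complex and is neither a syndecan nor a gene of heparan sulfate synthesis, though it was in the list. Xylt2, which attaches the first sugar of the chains, differed by 0.77 (SE 0.37).

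**Figure D4:**
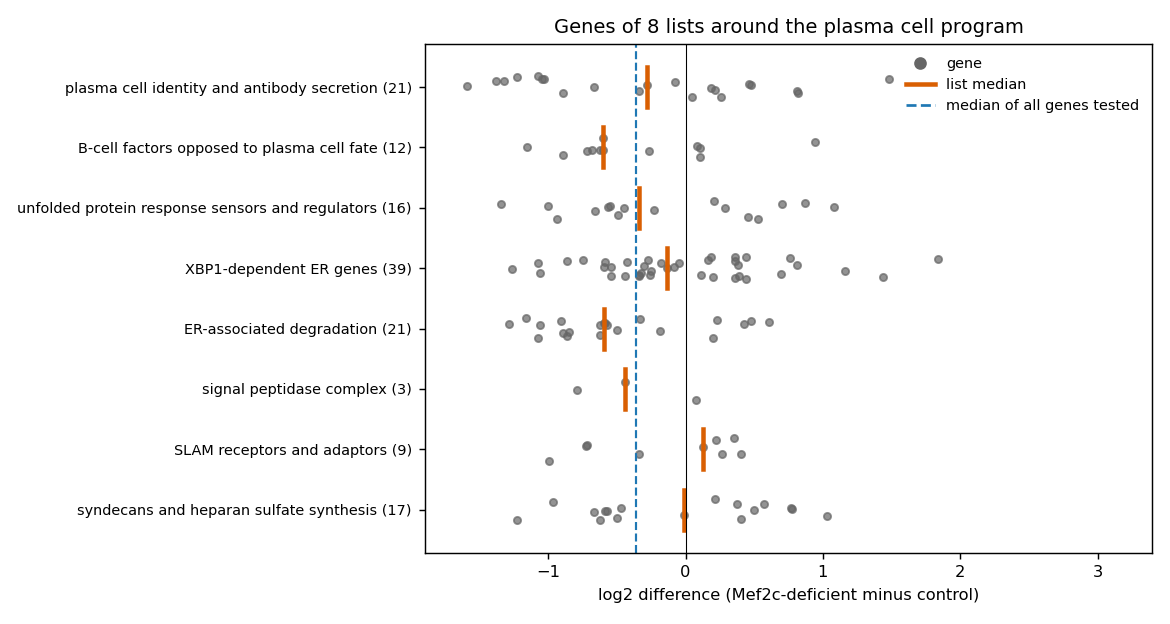
Log2 difference, Mef2c-deficient minus control (horizontal axis), of each gene tested (grey points) in 8 lists around the plasma cell program, with the number of genes in parentheses, the list median (orange bar) and the median of all genes tested (dashed blue line, -0.36). On the deposited scale, list medians ran from -0.60 for B-cell factors to 0.13 for SLAM receptors and adaptors, and every list held genes on both sides of 0.

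The patterns most like that of Sdc1 over the 6 arrays belonged to Mybl1, Hmmr, Crls1, Clspn and Stau2, with Pearson's r from 0.996 to 0.998, a description over arrays that share the same 2 groups. Hmmr encodes a spindle protein and Clspn the checkpoint adaptor claspin, Mybl1 a MYB family factor, Crls1 the cardiolipin synthase and Stau2 an RNA-binding protein. Clspn had log2 values of 11.05, 9.08 and 8.63 in the Mef2c-deficient arrays, against 13.08, 12.78 and 13.16 in the control arrays, with Mef2c-deficient replicate 1 nearest to the controls, as in Sdc1. The patterns most like that of Slamf7 belonged to Rnf34, Opa3, Cdca7, Zfand1 and Bpnt2 (r from 0.995 to 0.997), and each of these was highest in control replicate 3 and lowest in Mef2c-deficient replicate 2, as Slamf7 was. Their log2 differences were smaller than that of Slamf7, from -0.29 for Zfand1 to -1.48 for Opa3.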

How the data were processed

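The authors deposited 1 table of intensity values for 23913 probe sets on a linear scale, which per the study's methods come from robust multiarray averaging (background adjustment, quantile normalization, summary per probe set). No tool version is given in the sources used. The values, 3.33 to 2144602, exceed at their top what a scanner reads, so the base of the exponent is open. They were log2-transformed with no offset. Groups and replicate numbers come from the sample titles. Probe sets with 1 symbol (17689) in the platform annotation were kept above the 40th percentile of mean log2 (7.26), and a gene was represented by its brightest probe set. limma 3.58.1 in R 4.3.3 compared the groups (lmFit, eBayes, two-sided, Benjamini-Hochberg over 11271 genes, threshold 0.05), after a check on simulated data. The precision is limited by the number of arrays.

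Same-numbered arrays deviated together (r of 0.348, 0.226 and 0.373), so the groups were also compared with replicate number as blocking factor. Between different numbers r ran from -0.309 to 0.129, and was positive only between numbers 1 and 2. The deviations within a group sum to 0, so these values of r are not independent of each other. The pairing comes from these values and the shared numbers.

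The 6 genes and the 8 pathway and 8 cell type lists were chosen with earlier results of these data known. List genes named are the 4 of smallest unadjusted p per list, all measured syndecans, SLAM receptors, EDEM genes and signal peptidase subunits, the 2 brightest markers of a cell type at most, and the 5 genes most correlated with Sdc1 and with Slamf7. Igha, Irf4, Jchain, Mzb1, Tnfrsf17, Pax5, Ern1, Ncr1, Rag1, Il7r and Sh2d1a were named after their values were seen. Alternatives were other filters, scalings, an offset of 16, averaged probe sets, the methods' t-test, and arrays left out. Promoters were matched by symbol in a RefSeq table, used for sequences only.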

Additional observations from a re-analysis of the deposited data

How the results depend on the processing

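Sdc1 and Slamf7 kept their lower means and separate groups in all alternatives run, with log2 differences of -2.81 to -2.13 and -2.46 to -1.78 when 1 array was left out. Leaving out 1 array gave -0.44 to 0.23 for Prdm1, 0.05 to 1.38 for Xbp1, -0.65 to -0.36 for Edem1 and -0.40 to 0.12 for Sec11c. Without both arrays numbered 3, Prdm1 was 0.31 and Edem1 -0.72, each with separate groups, Xbp1 0.24 and Sec11c -0.22, both with overlap. Groups of fewer arrays are separate more easily, and the share of all genes that were separate in this setting is not given here. Edem1 was 0.018 after quantile normalization, 0.074 after cyclic loess and -0.17 after median centring.

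The count of genes lower at a limma adjusted p under 0.05 was 0 after each of the 3 scalings, with the replicate block, with the methods' t-test and without both arrays numbered 3 (an alternative added after seeing the data), and 0 to 154 without 1 array, the highest without Mef2c-deficient replicate 3. The count of higher genes was 0 to 5 without 1 array. With p under 0.05 before adjustment, lower genes numbered 1247 after quantile normalization, 1148 after cyclic loess, 1209 after median centring and 1392 to 2668 without 1 array. Higher genes numbered 1445 with no filter, 249 with the 60th percentile filter, 931 after cyclic loess, 1581 after median centring and 239 to 797 without 1 array. The replicate block gave 2599 lower and 757 higher genes by that measure and took 0 of the 43 named list genes across the adjusted threshold. Before adjustment, 4 of them crossed 0.05 with the block, Ciita and Ptpn11 to above it and Irf8 and Golgb1 to below it.

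The median of the plasma cell identity list was -0.079 with no filter, -0.11 after quantile normalization, 0.017 after cyclic loess, 0.013 after median centring and -0.46 to -0.16 without 1 array. That of the unfolded protein response list was 0.13 after quantile normalization and 0.20 after cyclic loess. With no filter and with the 60th percentile filter it was -0.0099. ER-associated degradation had -0.19, -0.13 and -0.30 after quantile normalization, cyclic loess and median centring, -0.43 without both arrays numbered 3, and -0.76 to -0.38 without 1 array. SLAM receptors and adaptors had 0.55, 0.68 and 0.42 under the 3 scalings, -0.070 without both arrays numbered 3, and -0.27 to 0.16 without 1 array (-0.22 without Mef2c-deficient replicate 2, -0.27 without Mef2c-deficient replicate 3 and -0.07 without control replicate 3). Syndecans and heparan sulfate synthesis had 0.29 with no filter, -0.47 with the 60th percentile filter, 0.18, 0.14 and 0.28 under the 3 scalings, and -0.15 to 0.25 without 1 array. B-cell factors had -0.67 to -0.20, XBP1-dependent ER genes -0.36 to 0.12, the unfolded protein response -0.49 to -0.080 and signal peptidase -0.59 to -0.25 without 1 array. Of 240 counts of list genes at an unadjusted p under 0.05, 95 moved by more than 1.5 times.

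Across 683 recomputed differences of 43 named list genes, 0 passed an adjusted p of 0.05 and 18 changed sign. Under the scalings these were Sec11a (0.0089, cyclic loess) and Inpp5d (0.049 with quantile normalization and 0.20 with cyclic loess). Without both arrays numbered 3, Spcs3 was -0.36, Slamf1 0.0051, Cd48 -0.39, Slamf9 -0.070 and Pax5 0.47. Without 1 array, the ranges were -0.54 to 0.61 for Spcs3, -0.27 to 0.57 for Cd48, -0.29 to 0.80 for Slamf9 and -0.091 to 1.12 for Edem2, each lowest without Mef2c-deficient replicate 3. They were -0.29 to 0.58 for Cd84 (lowest without Mef2c-deficient replicate 2), -0.021 to 0.40 for Slamf6 (lowest without control replicate 2) and -1.09 to 0.046 for Pax5 (highest without control replicate 3). The causes were not tested. With 3 arrays a group and Mef2c-deficient replicate 3 far from the others, small differences cannot be resolved.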
